A study of Ovis aries with 12 samples.

Results

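The microtubule motors of cell division were followed through the estrous cycle in the oviduct isthmus of the sheep, over 8 genes, namely 7 mitotic kinesins (*KIF2C*, *KIF4A*, *KIF11*, *KIF15*, *KIF20A*, *KIF20B* and *KIF23*) and *PRC1*, the microtubule bundling protein with which several of them work. The genes were chosen by name, with earlier results of these data known in which the BB follicular libraries were high, so comparisons that hold those libraries are given as a description. Of the 63643 transcripts in the table (43674 RefSeq transcripts and 19969 lncRNAs), 15 belonged to these genes. Through a newer RefSeq annotation 14 of them were paired with their gene and summed, and 1 more *KIF23* transcript, named only in the study's own table, was kept singly. All 8 gene sums and all 15 transcripts passed the filter, a mean of at least 0.1 FPKM (fragments scaled to the length of the transcript and the depth of the library) over the 12 libraries. *KIF4A* and the *KIF23* transcript XM_015096844.1 passed it through MF alone, with means of 0.0932 and 0.0113 FPKM over the other 9 libraries. The sums are incomplete, since 34.81% of the RefSeq transcripts, holding 67.57% of their FPKM, could be paired with any gene.

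The 12 libraries came from 12 Small-Tailed Han ewes, 6 homozygous for FecB (BB, the group letter M), the Booroola fecundity allele of the BMP receptor gene *BMPR1B*, and 6 without it (++, wild type, w). The ewes were 2.5 ± 0.5 years old, and every ewe, in all 4 groups, had first carried a vaginal progesterone device (CIDR, 300 mg) for 12 days. Of the 12 libraries, 3 each were taken from BB ewes in the follicular phase (MF, 45 to 48 h after removal of the device), BB ewes in the luteal phase (ML, day 9 after removal), ++ ewes in the follicular phase (wF) and ++ ewes in the luteal phase (wL). The isthmus was taken as whole tissue, so each library mixes epithelium, muscle and stroma, and the cycle was set by the device rather than followed as a natural one.

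As background, kinesins are motors that walk along microtubules or take them apart, and dividing cells use a set of their own. Bipolar motors push the spindle poles apart, depolymerising kinesins correct faulty attachments of chromosomes, chromokinesins sit on chromosome arms, and at the end of mitosis PRC1 bundles the antiparallel microtubules of the central spindle, to which kinesins bring the proteins that place and finish the cleavage furrow. The transcripts of most of these proteins are known to accumulate in G2 and mitosis, so their level in a tissue is commonly read beside markers of proliferation. The oviduct epithelium holds ciliated and secretory cells, and the isthmus has a thick coat of smooth muscle.

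Before the members, 4 libraries (ML2, ML3, wF2 and wL2) stood apart from the rest on the first principal component of all genes, which held 36.7% of the variance, with scores of 38.1 to 110 against -44.7 to -13.3 in the other 8. Their summed smooth muscle markers (9 of 12 listed genes had values, among them *DES*, *ACTG2* and *CNN1*) were 3653 to 7325 FPKM against 497 to 2192 in the other 8, and their summed ciliated cell markers (10 of 14 listed, among them *DNAI1* and *RSPH1*) were 44.1 to 257 against 422 to 1004. ML3 was nearly without ciliated cell markers other than *TPPP3* (38.1 of its 44.1 FPKM), with *SPAG6* listed at 0 and *DNAI1* at 0.0268 FPKM. FPKM summed to 349733 to 456531 per library. Read numbers are not in the table, and relative depth, a rough estimate from the steps between low values, ran from 0.670 to 1.15 times that of MF1. Between 23.8 and 31.1% of transcripts were listed at 0 in a library, and a 0 need not mean absence: of 9351 RefSeq transcripts with at least 10 FPKM in 1 library, 713 were listed at 0 in another.

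The 8 genes together were highest in MF and lowest in wL. Their gene sums added up to 27.8, 26.4 and 33.8 FPKM in MF1, MF2 and MF3, to 8.92, 7.63 and 13.7 FPKM in the wF libraries, to 4.74, 5.03 and 13.4 FPKM in the ML libraries, and to 2.73, 2.22 and 2.66 FPKM in the wL libraries. The MF libraries lay above all others and the wL libraries below all others, while wF (10.1 ± 3.17, SD, n = 3) and ML (7.74 ± 4.94, SD, n = 3) overlapped, ML3 reaching the level of wF3. MF had the highest group mean for 7 of the 8 genes, all but *KIF20B*, and wL the lowest for 8 of 8. In 5 genes (*KIF2C*, *KIF4A*, *KIF20A*, *KIF11* and *PRC1*) each MF library lay above all 9 other libraries. The shares of all gene sums with these orders were not computed. As the genes were chosen with MF in view, nothing is read from these counts. In bulk tissue, fewer dividing cells and less RNA per cell cannot be told apart.

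**Figure D1:**
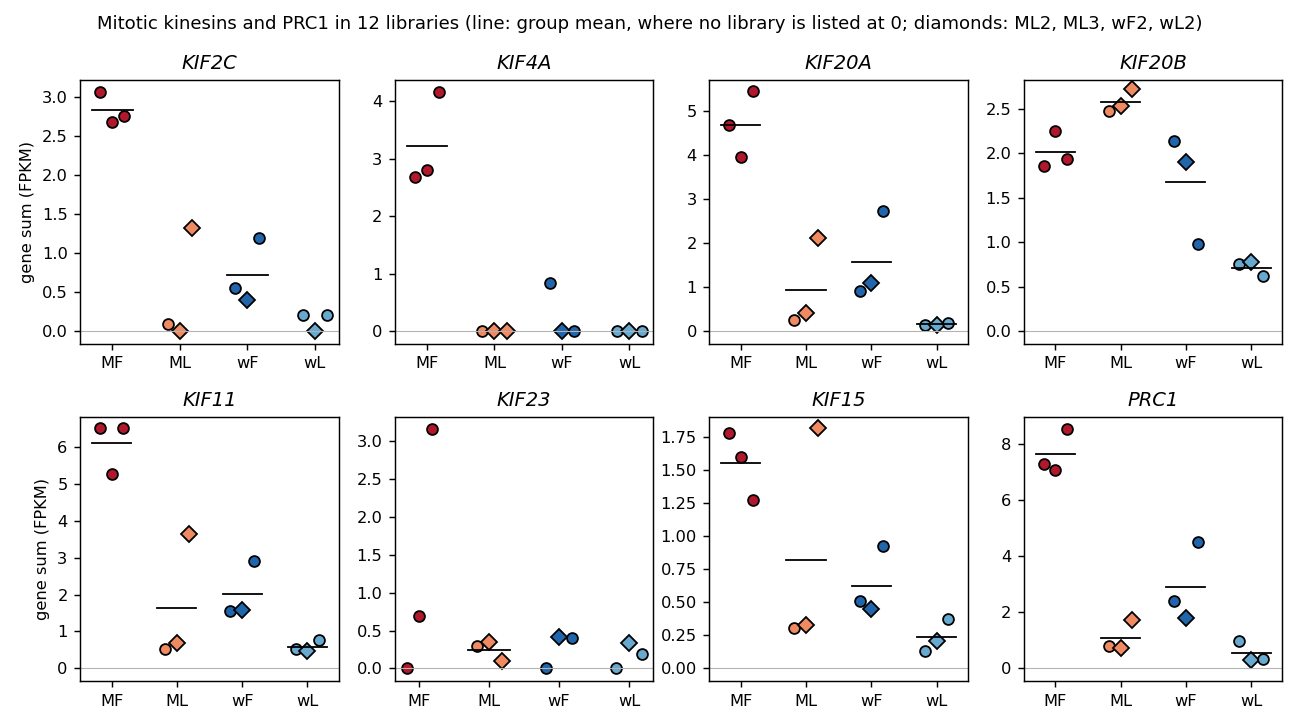
Gene sums (FPKM, vertical axes that differ by panel) of the 8 genes in each of the 12 libraries, grouped by genotype and phase; points are libraries, diamonds are ML2, ML3, wF2 and wL2, and lines are group means, drawn only where no library of the group is listed at 0. In KIF2C, KIF4A, KIF20A, KIF11 and PRC1 all MF points lie above the rest, in KIF20B the ML libraries (2.47 to 2.72 FPKM) are highest, in KIF15 the highest point is ML3 (1.82 FPKM), and ML3 sits well above ML1 and ML2 for KIF2C, KIF20A, KIF11 and KIF15.

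Of the motors that build the spindle, *KIF11* (Eg5), the bipolar motor that slides antiparallel microtubules and separates the poles, had the highest group mean of the 7 kinesins in both follicular groups. In wF1 and wF2 *KIF20B* was higher (2.14 and 1.91 FPKM). *KIF11* was 6.51, 5.27 and 6.51 FPKM in MF, 1.56, 1.58 and 2.91 FPKM in wF, 0.534, 0.694 and 3.65 FPKM in ML, and 0.519, 0.483 and 0.757 FPKM in wL. The MF values (6.10 ± 0.718, SD, n = 3) lay apart from every other group and the wF values (2.02 ± 0.775) lay above wL (0.586 ± 0.149), whereas ML (1.63 ± 1.76) spanned the wF and wL ranges, ML3 being its high value.

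*KIF15*, a plus-end motor that can stand in for KIF11 in keeping the spindle bipolar, was lower throughout. It stood at 1.78, 1.60 and 1.28 FPKM in MF, 0.506, 0.447 and 0.927 FPKM in wF, 0.307, 0.332 and 1.82 FPKM in ML, and 0.134, 0.210 and 0.374 FPKM in wL. Here ML3 was the highest of all 12 libraries, so MF and ML overlapped, and the 3 wF values lay above the 3 wL values.

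Its pair of transcripts did not share this order. XM_015102297.1 was 0.520, 0.747 and 1.18 FPKM in MF, 0.464, 0.414 and 0.893 FPKM in wF, 0.307, 0.267 and 0.126 FPKM in ML, and 0.134, 0.210 and 0.339 FPKM in wL. All 6 follicular values thus lay above all 6 luteal values. The other transcript, XM_012099496.1, reached 1.26 and 0.849 FPKM in MF1 and MF2 and 1.69 FPKM in ML3, and was at most 0.0930 FPKM in the remaining 9 libraries, so that it made up 93.0% of the *KIF15* sum in ML3 and 7.29% of it in MF3.

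Of the motors that act on chromosomes, *KIF2C* (MCAK), a kinesin that depolymerises microtubules at centromeres, stood at 3.07, 2.68 and 2.76 FPKM in MF. It was 0.554, 0.398 and 1.19 FPKM in wF, 0.0940, 0 and 1.32 FPKM in ML, and 0.209, 0 and 0.210 FPKM in wL. All MF values lay above all others, and wF lay above wL. Transcript XM_004001903.3 carried most of the sum in MF (68.1 to 83.6%) and was at most 0.0940 FPKM in the ML libraries. The level of ML3 came almost wholly (98.1%) from the other transcript, XM_012123215.2, at 1.30 FPKM, which was 0.504 to 0.880 FPKM in MF and listed at 0 in all wL libraries.

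*KIF4A*, a chromokinesin that also works with PRC1 on the central spindle, had a single paired transcript, XM_012106845.2. It was 2.68, 2.81 and 4.16 FPKM in MF and 0.838 FPKM in wF1, and was listed at 0 in the other 8 libraries. Every MF value was thus above every other value, and no fold against ML or wL can be given.

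The central spindle and furrow genes were led by *PRC1*, whose group mean was the highest of the 8 in both follicular groups. Its sum was 7.28, 7.10 and 8.56 FPKM in MF, 2.42, 1.81 and 4.51 FPKM in wF, 0.790, 0.721 and 1.71 FPKM in ML, and 0.984, 0.292 and 0.322 FPKM in wL. The follicular groups (7.64 ± 0.795 in MF and 2.91 ± 1.42 in wF, SD, n = 3) lay above all luteal libraries, and ML (1.07 ± 0.553) and wL (0.533 ± 0.391) overlapped.

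Of its 4 transcripts, XM_015101892.1 showed the clearest split by phase, with 2.28, 4.10 and 5.16 FPKM in MF, 1.68 and 1.81 FPKM in wF1 and wF2, and a listed 0 in wF3 and in all 6 luteal libraries. In wF3 the *PRC1* sum came instead from XM_015101891.1 (2.75 FPKM), which was 1.33 to 3.22 FPKM in MF, listed at 0 in wF1 and wF2, and at most 0.721 FPKM in the luteal libraries. XM_015101893.1 did not split by phase, at 1.07 to 1.67 FPKM in MF but also 1.60 FPKM in ML3 and 0.965 FPKM in wL1. XM_015101894.1 was above 0 only in MF1 (0.698 FPKM) and wF3 (0.947 FPKM). Which transcript carried the sum therefore changed between libraries of 1 group.

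**Figure D2:**
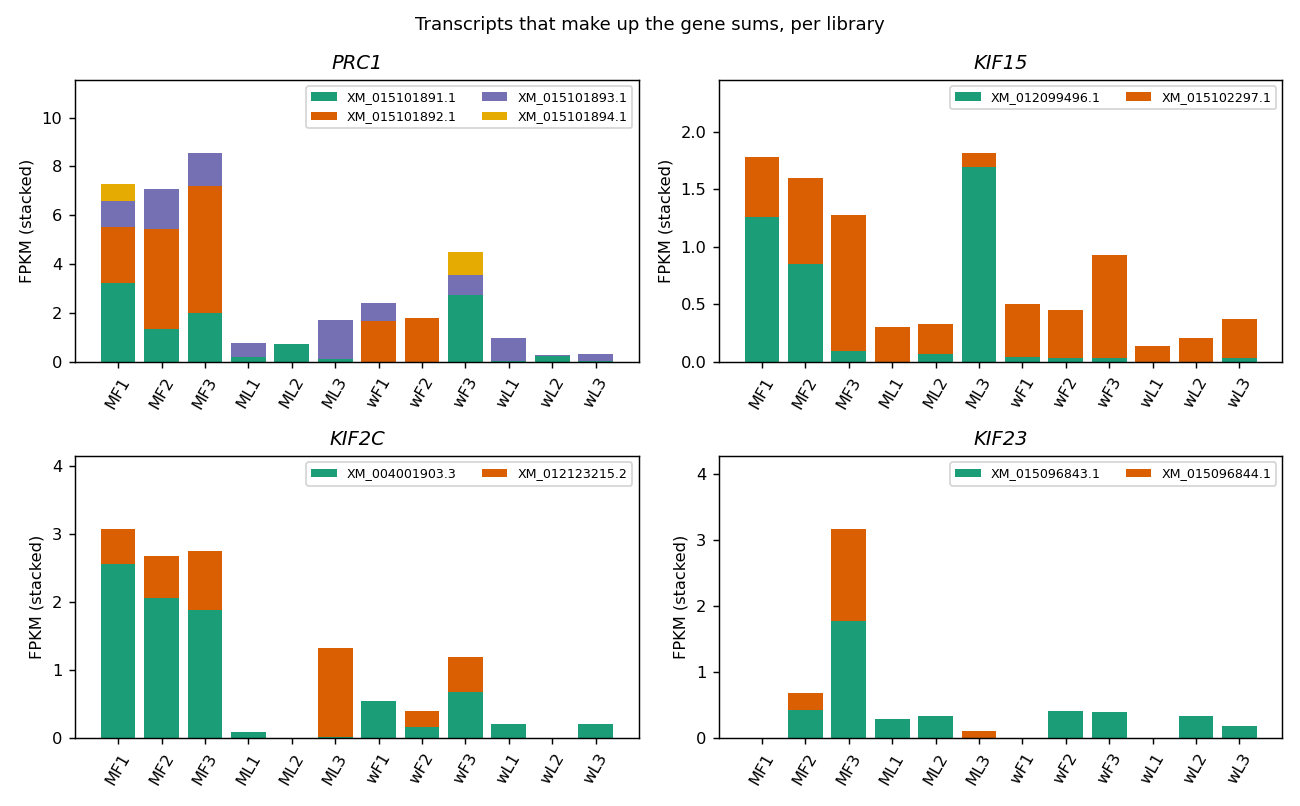
FPKM of each paired transcript (colours), stacked to the gene sum (vertical axes that differ by panel), in the 12 libraries for PRC1, KIF15, KIF2C and KIF23. The PRC1 transcript XM_015101892.1 is present in 5 of the 6 follicular libraries and in no luteal library, and the KIF15 sum of ML3 is almost all XM_012099496.1 (1.69 FPKM).

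*KIF20A* (MKLP2), which brings the chromosomal passenger complex to the central spindle, was 4.66, 3.95 and 5.43 FPKM in MF. It was 0.907, 1.09 and 2.73 FPKM in wF, 0.243, 0.409 and 2.12 FPKM in ML, and 0.132, 0.138 and 0.190 FPKM in wL. MF (4.68 ± 0.740, SD, n = 3) lay above the rest, and wL (0.153 ± 0.0321) lay below all 9 other libraries, ML1 included.

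*KIF23* (MKLP1), the motor of the centralspindlin complex that recruits the furrow machinery, overlapped between all groups. Its group means fell from 1.285 FPKM in MF to 0.271 in wF, 0.247 in ML and 0.174 in wL. Its sum was 0, 0.691 and 3.16 FPKM in MF, 0, 0.409 and 0.403 FPKM in wF, 0.296, 0.343 and 0.104 FPKM in ML, and 0, 0.330 and 0.190 FPKM in wL, so that its highest value and a listed 0 both fell in MF. The transcript outside the sum, XM_012180855.2, was 1.87, 0.165 and 0.193 FPKM in MF, 0.303, 0.174 and 0.394 FPKM in wF, 0, 0.0627 and 1.59 FPKM in ML, and listed at 0 in all wL libraries. MF1, at 0 in the sum, was the highest library for this transcript.

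*KIF20B* (MPP1), a motor of late cytokinesis, had an order of its own. It stood at 1.86, 2.25 and 1.93 FPKM in MF, 2.14, 1.91 and 0.981 FPKM in wF, 2.47, 2.53 and 2.72 FPKM in ML, and 0.752, 0.771 and 0.615 FPKM in wL. All ML values (2.58 ± 0.128, SD, n = 3) lay above all MF values (2.01 ± 0.210), MF and wF (1.68 ± 0.613) overlapped, and wL (0.713 ± 0.0850) lay below the other 9 libraries.

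To ask how the phases differed in BB ewes, MF was set against ML. Since the members were chosen with MF in view, nothing is read from the counts that follow. Cell type markers differed between these groups too: 10 of 10 ciliated markers were fitted higher in MF (median log2 difference 2.59), as were *EPCAM* and *KRT8*, whose groups did not overlap, and 9 of 9 smooth muscle markers were lower (median -1.87, 5 of them at an unadjusted p under 0.05). Their part in the differences was not tested. On the log2(FPKM + 0.1) scale, which understates changes of low genes, the fitted difference was 3.28 (SE 0.87) for *KIF2C*, 2.81 (SE 0.49) for *PRC1*, 2.70 (SE 0.64) for *KIF20A*, 2.32 (SE 0.59) for *KIF11*, 1.23 (SE 0.59) for *KIF15*, 0.95 (SE 1.16) for *KIF23* and -0.34 (SE 0.31) for *KIF20B*, with *KIF4A* listed at 0 in ML. The gene sums of 2 members (*KIF4A* and *PRC1*) were called, that is, had an adjusted p under 0.05 in limma and a log2 difference of at least 1, where 1.73% of the 8676 gene sums tested were. As single transcripts, 2 of 15 were called (*KIF2C* XM_004001903.3 and the *KIF4A* transcript), where 0.272% of 31290 were. The *KIF4A* call was lost without MF1 or MF2 and the *PRC1* call without any 1 of MF1, MF2, ML1, ML2, wF1, wF3 and wL3. Leaving out ML3 raised the count to 5 gene sums. Calls over all gene sums also changed with the library left out, and their share in these fits is not given here. With all 12 libraries, 66.7% of the calls over all gene sums were higher in MF. With the gene sums, which hold paired transcripts only, rescaled to the same total per library, the median over all gene sums went from 0.06 to -0.37. In that fit 10.2% of 781 calls were higher, while no member gene sum changed direction in this comparison. Relative depth was 0.951 to 1.02 in MF and 0.670 to 0.773 in ML, and its part in the differences was not tested. The groups did not overlap in 5 members that were higher in MF (16.5% of all gene sums) and in 1 that was lower, *KIF20B* (14.4%).

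In ++ ewes the same contrast of phases, wF against wL, compared no MF library. The filter and the spread behind its SE and p-values still came from all 12 libraries. Without ML3, which is in neither group, the SE of *KIF2C* went from 0.87 to 0.55 and its adjusted p from 0.588 to 0.390 in limma. Every member had the higher fitted level in wF, but none passed the test. The difference was 2.57 (SE 0.64, adjusted p = 0.445) for *KIF20A*, 2.32 (SE 0.49, adjusted p = 0.439) for *PRC1*, 1.82 (SE 0.87, adjusted p = 0.588) for *KIF2C*, 1.59 (SE 0.59, adjusted p = 0.502) for *KIF11*, 1.10 (SE 0.59, adjusted p = 0.622) for *KIF15* and 1.06 (SE 0.31, adjusted p = 0.489) for *KIF20B* in limma on log2(FPKM + 0.1). *KIF4A* was above 0 in wF1 alone, and *KIF23* differed by 0.35 (SE 1.16, adjusted p = 0.943). By limma 0 of 8 members were called, and 0% of all gene sums. At an unadjusted p under 0.05 there were 4 members (*PRC1*, *KIF20A*, *KIF20B* and *KIF11*), all higher in wF, where 2.82% of all gene sums were higher at that level. The 3 wF values lay above the 3 wL values in 6 of the 8 (4.31% of all gene sums), the exceptions being *KIF4A* and *KIF23*. Of the fibroblast markers 4 of 6 were fitted higher in wF (median log2 difference 1.12, and 2 that did not overlap), as were 8 of 9 smooth muscle markers (median 0.99), while 10 of 10 ciliated markers were fitted lower (median -0.90). Their part was not tested. Over the 7 members other than *KIF4A* the median log2 difference was 1.59, against -0.12 over all gene sums. Of the 15 transcripts 0 were called (0.00959% of all transcripts), and 4 had an unadjusted p under 0.05 and were higher in wF (2.19% of all transcripts). Without wF3 the *PRC1* transcript XM_015101892.1 was called (adjusted p = 0.0233, limma), the only call in the 12 fits that left out 1 library. As wF3 was the only wF library listed at 0 for it, and all wL libraries were, nothing is read from this call.

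**Figure D3:**
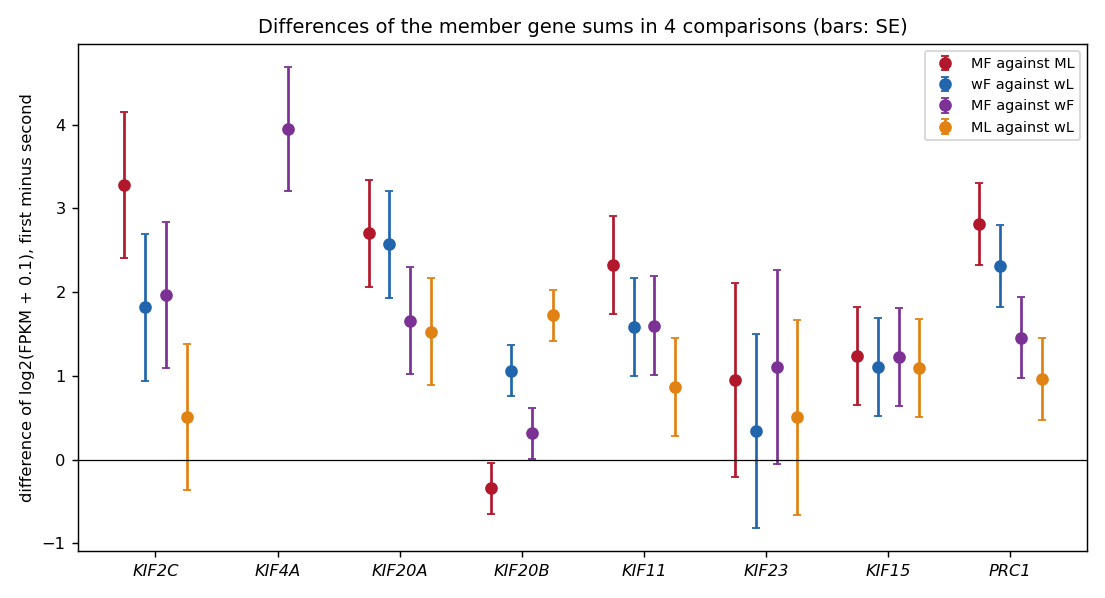
Fitted differences of log2(FPKM + 0.1) for the 8 gene sums in 4 comparisons (colours), first group minus second, with bars of 1 SE from limma on 12 libraries; KIF4A is drawn only where neither group is wholly at 0. The wF against wL differences range from 0.35 to 2.57, and KIF20B alone is below 0 in MF against ML (-0.34) while it is 1.72 in ML against wL.

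Between the genotypes in the follicular phase, MF against wF, all 8 members were fitted higher in MF, and this comparison too is a description. *KIF20B* came to -0.01 without wF3 and *KIF23* to -0.07 without MF3. The difference was 3.95 (SE 0.74) for *KIF4A*, 1.97 (SE 0.87) for *KIF2C*, 1.66 (SE 0.64) for *KIF20A*, 1.60 (SE 0.59) for *KIF11*, 1.46 (SE 0.49) for *PRC1*, 1.23 (SE 0.59) for *KIF15*, 1.11 (SE 1.16) for *KIF23* and 0.32 (SE 0.31) for *KIF20B* on the log2(FPKM + 0.1) scale. Of the members 0 were called in limma, where 0.0231% of all gene sums were, and 5 had an unadjusted p under 0.05 and were higher (1.99% of all gene sums). The groups did not overlap in 6 members, all higher in MF (5.16% of all gene sums). Of the ciliated markers 10 of 10 were fitted higher in MF (median log2 difference 0.88), and of the smooth muscle markers 0 of 9 (median -1.58), where 52.8% of all gene sums were. Their part in the differences was not tested. Without wF1, the 1 wF library with a *KIF4A* value, *KIF4A* was called. As wF2 and wF3 are both listed at 0, nothing is read from this call. Since MF enters this comparison and the one with ML, and wF enters this one and the one with wL, they share libraries and are not separate evidence.

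In the luteal phase, ML against wL, no MF library was compared, although the filter and the spread again came from all 12 libraries. Cell type markers differed here too. Of the ciliated markers 0 of 10 were fitted higher in ML (median log2 difference -2.545), and of the smooth muscle markers 9 of 9 (median 1.47), where 38% of all gene sums were. Relative depth was 0.670 to 0.773 in ML and 0.766 to 0.944 in wL. The part of either in the differences was not tested. *KIF20B* showed the largest difference between the genotypes, 1.72 (SE 0.31, adjusted p = 0.361 in limma), with 2.47 to 2.72 FPKM in ML against 0.615 to 0.771 FPKM in wL. It was nearly the same, 1.72, without the 4 libraries that stood apart and between 1.63 and 1.78 in the 12 fits that left out 1 library. *KIF20A* differed by 1.53 (SE 0.64, adjusted p = 0.380 in limma), which fell to 0.73 without ML3. *KIF15* (1.10, SE 0.59), *PRC1* (0.96, SE 0.49), *KIF11* (0.87, SE 0.59), *KIF2C* (0.51, SE 0.87) and *KIF23* (0.50, SE 1.16) overlapped between the groups, and *KIF4A* was listed at 0 in both. Of the 8 members 0 were called (0% of all gene sums), 2 had an unadjusted p under 0.05 (3.84% of all gene sums were higher at that level) and the same 2, *KIF20A* and *KIF20B*, did not overlap (4.83%). Without ML3 the *KIF11* difference was 0.07 and the *KIF2C* difference -0.61, so that these rested on that library.

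Whether the phases differed by more in BB than in ++ ewes was asked with the interaction term. None of the 8 members was called in limma (0.0115% of all gene sums were), and 2, *KIF4A* and *KIF20B*, had an unadjusted p under 0.05 (13% of all gene sums). The term was -1.41 (SE 0.43) for *KIF20B*, which fell short of ML in MF and exceeded wL in wF, and 3.95 (SE 1.05) for *KIF4A*, a fitted value that takes both luteal groups at a listed 0. It lay between 0.13 and 1.46 for the other 6, with SE of 0.69 to 1.64. These terms hold MF and are given as a description. *KIF4A* alone was called when wF1 was left out. Every library outside MF is then listed at 0 for it, so nothing is read from this call either.

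The 4 libraries that stood apart were then left out, which was decided with the data in hand and leaves ML1 as the only ML library. MF against ML gave 7 of 8 members fitted higher (51% of 8569 gene sums), wF against wL gave 8 (36.2%), MF against wF gave 8 (58.4%) and ML against wL gave 5 (40.1%), compared with 7, 8, 8 and 7 with all 12 (53.2, 38.9, 52.8 and 38% of all gene sums). The wF libraries lay above the wL libraries in 6 members, as with all libraries, but with 2 against 2 libraries 14.8% of all gene sums did so. The differences for wF against wL barely moved, with *KIF20A* at 2.70, *PRC1* at 2.33 and *KIF11* at 1.62, whereas for ML against wL *KIF2C* was -0.67 and *KIF11* -0.20.

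The cell type markers of each library were set beside the members. The wL libraries, lowest in the members (2.22 to 2.73 FPKM in sum), ranged widely in their ciliated sums (257 to 1004 FPKM) and smooth muscle sums (608 to 3653 FPKM), wL2 lying apart from wL1 and wL3. The MF libraries, highest in the members, had ciliated sums of 471 to 820 FPKM and smooth muscle sums of 497 to 1643 FPKM. ML3, with the lowest ciliated sum (44.1 FPKM) and the highest smooth muscle sum (7325 FPKM), had the highest member sum in ML. Leukocyte markers (8 of 13 listed genes with values) summed to 8.92 to 14.3 FPKM in MF, 5.77 to 14.7 in wF, 10.5 to 14.5 in ML and 12.2 to 14.5 in wL, and granulosa and cumulus markers (4 of 7) to at most 0.962 FPKM in any library. Of the secretory epithelium list only *EPCAM* and *KRT8* of 8 genes had values, at 572 to 638 FPKM in sum in MF and 97.7 to 724 FPKM elsewhere. Fibroblast markers (6 of 7) summed to 1212 to 3959 FPKM in MF, 1740 to 4461 in wF, 826 to 3826 in ML and 639 to 2259 in wL. The part of these cell types in the differences was not tested.

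**Figure D4:**
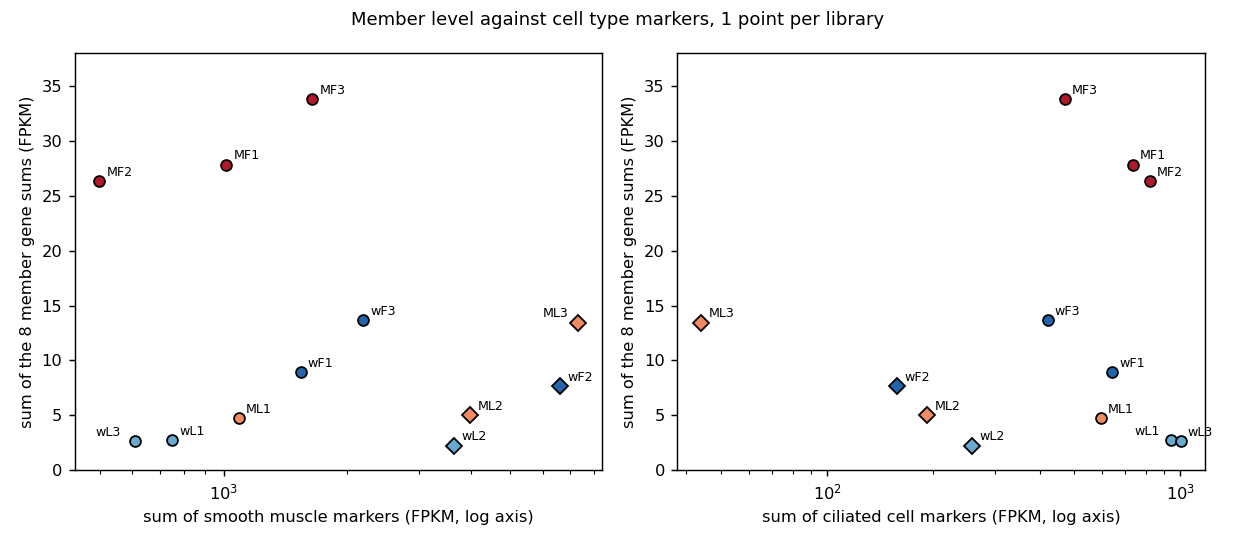
Sum of the 8 gene sums (FPKM, vertical axis) against the summed smooth muscle markers (left, log axis) and ciliated cell markers (right, log axis), 1 point per library, coloured by group, with diamonds for ML2, ML3, wF2 and wL2. The wL libraries have member sums of 2.22 to 2.73 FPKM at ciliated sums of 257 to 1004 FPKM, and the MF libraries 26.4 to 33.8 FPKM at 471 to 820 FPKM.

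Across the 12 libraries 6 of the members went up and down together. On the log2(FPKM + 0.1) scale the 15 pairs among *KIF2C*, *KIF4A*, *KIF11*, *KIF15*, *KIF20A* and *PRC1* had a Pearson r of 0.635 to 0.985 (median 0.916), the closest pair being *KIF11* and *KIF20A*. The 13 pairs that held *KIF20B* or *KIF23* had an r of 0.146 to 0.495 (median 0.299). Since the points are the 12 libraries of 4 groups, these values carry the group differences given above.

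The other genes whose pattern was most like the mean of the 8 members over the 12 libraries were *TPX2* (r = 0.980), *BIRC5* (0.974), *DLGAP5* (0.972), *CKAP2* (0.972), *UBE2C* (0.969), *CENPF* (0.968), *TOP2A* (0.964), *ASPM* (0.963), *CENPE* (0.963) and *CDCA2* (0.951). *TPX2* is a spindle assembly factor and activator of Aurora A, *BIRC5* encodes survivin of the chromosomal passenger complex, and *TOP2A* untangles sister chromatids. Of the 10, 7 were in the division lists below and 3 in no list. In group means *TOP2A* went from 20.0 FPKM in MF to 6.52 in wF, 5.10 in ML and 1.47 in wL, the order also found for *KIF2C*, *KIF11*, *KIF20A*, *KIF23* and *PRC1*.

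The remaining kinesins were read by their roles, from lists chosen with earlier results known. Of 8 other mitotic kinesins 6 were tested and 5 were fitted higher in MF than in ML (median log2 difference 1.63, against 0.06 over all gene sums), with 0 called in limma and 4 higher at an unadjusted p under 0.05, where 53.2% of all gene sums were fitted higher and 14.2% were higher at that level. For wF against wL 5 were fitted higher (38.9% of all gene sums), with a median of 0.70. In this comparison 0 were called, and 2 were higher at an unadjusted p under 0.05 (2.82% of all gene sums). *CENPE*, the kinetochore motor that moves chromosomes to the spindle equator, was 2.71 ± 0.577 FPKM in MF, 1.002 ± 0.0999 in wF, 0.883 ± 0.950 in ML and 0.325 ± 0.0961 in wL (SD, n = 3). *KIF22*, a chromokinesin, was 3.27 ± 1.23 FPKM in MF, 1.40 ± 0.415 in wF, 1.39 ± 1.01 in ML and 0.823 ± 0.0717 in wL. *KIF18A*, which damps chromosome movements, was 1.49 to 2.08 FPKM in MF and at most 0.0303 FPKM in ML. *KIFC1*, a minus-end motor, was 2.08 to 4.68 FPKM in MF, 1.22 to 2.41 in wF, and listed at 0 in ML1, ML2, wL1 and wL2.

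Kinesins with other tasks gave a comparison. Of 17 listed cytoplasmic transport kinesins 9 were tested, 4 were higher in MF than in ML, and the median log2 difference was -0.09, with -0.07 for wF against wL. By limma 0 were called in either, and at an unadjusted p under 0.05 there were 1 higher and 2 lower in MF than in ML and 1 lower in wF than in wL. *KIFAP3*, the adaptor of the kinesin-2 motor, was 31.4 ± 3.41 FPKM in MF, 29.2 ± 1.43 in wF, 24.4 ± 2.70 in ML and 30.9 ± 3.02 in wL (SD, n = 3). Ciliary kinesins, 6 of 7 tested, had a median log2 difference of 2.03 for MF against ML but -0.76 for wF against wL and -1.95 for ML against wL, with 0 called in each and, at an unadjusted p under 0.05, 0, 0 and 1 gene in turn, the last lower in ML. *KIF9*, a motor of motile cilia, was 9.29 ± 4.40 FPKM in MF, 5.79 ± 2.71 in wF, 3.18 ± 3.50 in ML and 11.1 ± 7.76 in wL, so that wL, lowest for the members, was highest here. The ciliary list summed to 10.8 to 40.7 FPKM in the 4 libraries that stood apart and to 42.8 to 106 FPKM in the other 8.

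**Figure D5:**
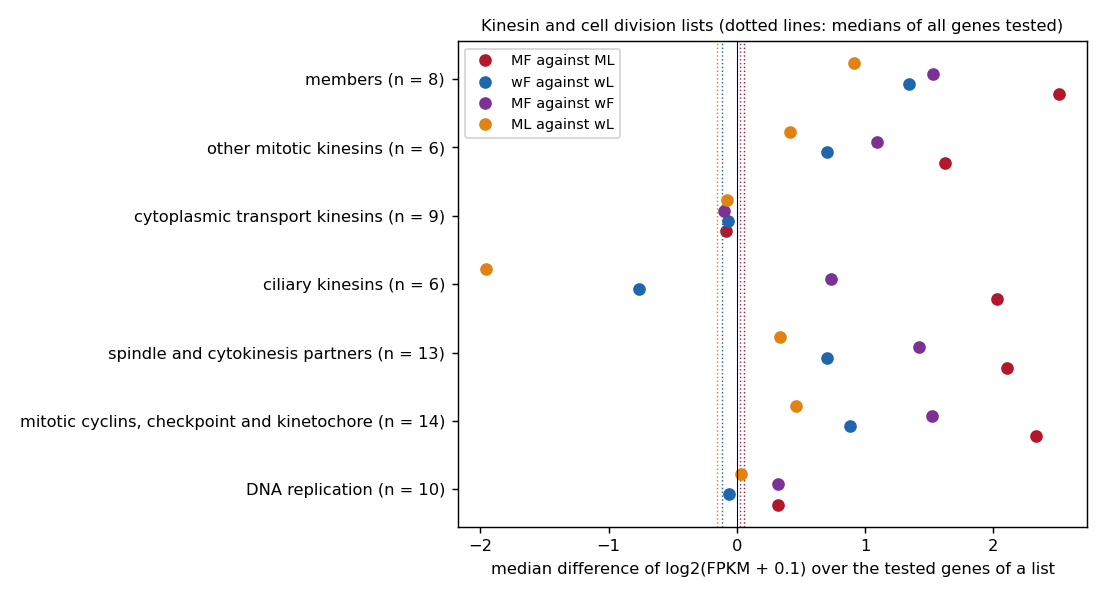
Median difference of log2(FPKM + 0.1) over the tested genes of each list (rows, n in brackets) in 4 comparisons (colours, first group minus second), with dotted lines at the medians of all gene sums. Members, other mitotic kinesins, spindle partners and checkpoint genes lie right of 0 in all 4 comparisons, transport kinesins near 0, and ciliary kinesins change side.

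The partners of these motors are described next, from lists chosen with the high MF libraries known, so that their MF against ML counts support nothing. Of 17 listed spindle and cytokinesis partners 13 were tested, all 13 were fitted higher in MF than in ML (median log2 difference 2.11) and 5 were called. Over all gene sums 53.2% were fitted higher and 1.15% were called higher. Over all gene sums the calls went from 150 to 2 without MF1 and to 1 without MF2, so most of the 5 are lost there too. *NUSAP1*, a spindle microtubule bundler, rose from 3.69 ± 1.23 FPKM in ML to 12.9 ± 1.09 in MF (SD, n = 3). *TPX2* rose from 2.16 ± 0.872 to 6.03 ± 0.966 FPKM, and the kinase *AURKA* from 0.537 ± 0.424 to 2.33 ± 0.293 FPKM. *ECT2*, the exchange factor that KIF23's complex recruits to the furrow, was 0.527, 0.627 and 0.271 FPKM in MF and listed at 0 in all ML and wF libraries. It passed the filter through MF alone, with a mean of 0.00147 FPKM over the other 9. For wF against wL the median of this list was 0.70 and 0 were called, with 5 higher at an unadjusted p under 0.05 (2.82% of all gene sums). *NUSAP1* did not share the order of the members there, at 4.33 ± 1.41 FPKM in wF and 4.43 ± 1.57 in wL.

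Of 19 mitotic cyclins, checkpoint and kinetochore genes 14 were tested and 13 were fitted higher in MF than in ML (median 2.33). The 2 called were *BUB1* and *MAD2L1*, both of the spindle checkpoint. Over all gene sums 53.2% were fitted higher and 1.15% were called higher. *MAD2L1* was 15.4 ± 0.162 FPKM in MF, 10.2 ± 1.90 in wF, 5.30 ± 1.36 in ML and 7.40 ± 1.15 in wL (SD, n = 3). *BUB1* resembled *KIF4A*, at 2.20, 3.42 and 3.03 FPKM in MF and at most 0.0583 FPKM in the other 9 libraries, and it too passed the filter through MF alone. For wF against wL the median was 0.88 with 0 called and 5 higher at an unadjusted p under 0.05 (2.82% of all gene sums).

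Of 16 DNA replication genes 10 were tested and 6 were fitted higher in MF than in ML (53.2% of all gene sums). The median log2 difference was 0.32, with 0 called and 4 higher at an unadjusted p under 0.05 (14.2% of all gene sums). For wF against wL 4 were fitted higher (38.9% of all gene sums), with a median of -0.06, 0 called and 2 higher at an unadjusted p under 0.05 (2.82%). Within the list *RRM2*, the ribonucleotide reductase subunit made in S phase, was 6.07 ± 2.11 FPKM in MF, 2.51 ± 0.708 in wF, 1.50 ± 1.78 in ML and 0.570 ± 0.208 in wL, the same order again. *RRM1*, its partner subunit, was 34.9 ± 3.33, 27.9 ± 1.90, 27.8 ± 4.11 and 30.1 ± 1.66 FPKM in the same groups, with a higher mean in wL than in wF and ML.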

How the data were processed

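RNA of the oviduct isthmus of 12 ewes was sequenced by the authors from rRNA-depleted paired-end libraries, reads were filtered with fastp and mapped to Oar_v3.1 with HISAT2, and transcripts were assembled with StringTie (versions are not given in the sources used here). The deposited table holds FPKM per transcript, and it is these values, not reads, that were tested. The depth per library is unknown beyond relative estimates. Transcripts were paired with genes by accession in a newer RefSeq table (ARS-UI_Ramb_v3.0), so no coordinates are given, and FPKM were summed per gene. Promoter and protein sequences were not analysed here.

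Gene sums and transcripts with a mean of at least 0.1 FPKM were fitted with limma 3.58.1 (R 4.3.3, with trend) on log2(FPKM + 0.1), with 4 group means over 12 libraries, Benjamini-Hochberg adjustment over all features of a table, and calls at an adjusted p under 0.05 and a log2 difference of at least 1. The study tested counts, which FPKM do not allow. The fit was tested on simulated data. Each library is 1 ewe, so p-values measure the spread between ewes. The members and lists were chosen with earlier results of these data known. Like genes were the 10 with the highest Pearson r, over 12 libraries, with the mean log2 value of the members, and named genes of a list the 4 with the smallest p for MF against ML, of which some are described. Alternatives changed the added value, the filter, the scaling, the samples in the fit and the replicate block, and left out each library. The columns of the study's own table of differential transcripts hold fold changes and p-values, which were not used. Only its gene name for 1 transcript was.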

Additional observations from a re-analysis of the deposited data

Results flagged for a closer look

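*KIF20B* was singled out because its phase difference had opposite signs in the 2 genotypes, although neither difference was called. All 3 MF libraries (1.86 to 2.25 FPKM) lay below all 3 ML libraries (2.47 to 2.72 FPKM), while all 3 wF libraries (0.981 to 2.14 FPKM) lay above all 3 wL libraries (0.615 to 0.771 FPKM). The phase difference in BB minus that in ++ was -1.41 on the log2(FPKM + 0.1) scale (SE 0.43), and limma did not call it. It was -1.73 to -1.21 in the 12 fits that left out 1 library and -1.28 without the 4 libraries that stood apart. With an added value of 1 it shrank to -0.86. The MF against ML difference of *KIF20B* went from -0.34 to -0.77 with the gene sums rescaled to the same total per library. The gene was among those chosen with the MF libraries in view.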

How the results depend on the processing

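For MF against ML, the 2 called gene sums became 5 with an added value of 1 and 3 with the gene sums rescaled to the same total per library. They became 1 with a mean of at least 1 FPKM and 1 with only the groups compared in the fit. The 2 called transcripts became 0 with a mean of at least 1 FPKM. Both of them and the *KIF4A* sum fail that filter, so that they were not tested (5 gene sums and 4 transcripts were). The share of all gene sums called in these fits is not given here. The fit without the 4 libraries that stood apart leaves 1 ML library, so its calls are not counted. Leaving out 1 library gave 0 to 5 gene sums and 0 to 3 transcripts for MF against ML, and 0 to 1 of each for MF against wF. It gave 0 to 1 gene sums for the interaction and 0 to 1 transcripts for wF against wL. Calls over all gene sums changed between fits too, so no count here is read as a result about the members. With the replicate block 2 gene sums and 0 transcripts were called. Whether replicate numbers pair the ewes could not be settled with 3 libraries a group. Correlations of deviations of same-numbered libraries were -0.188 to 0.385. In the 4 comparisons 3, 4, 0 and 3 of 6 libraries correlated best with their own number.

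Without the 4 libraries that stood apart, ML against wL changed sign for *KIF2C* (-0.67), *KIF11* (-0.20, sum and transcript alike) and *KIF15* XM_012099496.1 (-0.21). With 1 library left out, sign changed, in comparisons without MF, within -0.26 to 1.13 for *KIF23* (wF against wL, sum and XM_015096843.1), -0.10 to 0.95 for *KIF23* (ML against wL) and -0.43 to 0.85 for that transcript, -0.61 to 1.31 for *KIF2C* (ML against wL), -0.19 to 0.29 for *KIF15* XM_015102297.1 (ML against wL), -0.77 to 1.64 for *PRC1* XM_015101891.1 (wF against wL), and -0.61 to 1.14 (wF against wL) and -0.62 to 1.43 (ML against wL) for *PRC1* XM_015101893.1. In comparisons with MF, which carry no test, 6 gene sum values and 12 transcript values changed sign, among them *KIF23* (-0.23 to 2.29 for MF against ML, -0.07 to 2.45 for MF against wF), *KIF20B* (-0.01 to 0.52 for MF against wF) and the interaction terms of *KIF20A* (-0.41 to 0.93), *KIF15* (-0.25 to 0.86) and *KIF23* (-0.57 to 1.94). Of 2224 alternative values of single members, 2157 were counted as unchanged. In comparisons without MF this meant the same direction and the same call. In comparisons with MF it meant a move of less than 1 SD, with a wider limit for the interaction. Calls lost in comparisons with MF do not enter this count. The cause of the changes was not tested. Low FPKM, 3 ewes a group and values listed at 0 limit all of these.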
